A study of Mus musculus with 4 samples.

Results

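The proteasome genes were followed in BEKO, a mouse thymic lymphoma cell line of wild-type genotype, grown at low density (2 libraries) and at high density (2 libraries). All 4 libraries were total RNA made into strand-specific libraries, and no agent or allele distinguishes the groups. The labels state neither cell number nor culture time. Whether replicates were grown apart is not stated either, so each p-value reflects the scatter of the libraries at hand, which may be technical. Members were all rows named Psma, Psmb, Psmc, Psmd or Psme with a number, leaving out the immunoproteasome genes Psmb8, Psmb9 and Psmb10. This gave 42 of the 25630 rows of the table, and 40 of them passed the filter of a mean of at least 1 TPM (transcript abundance, a level per length within a fixed total). The members below the filter were Psma8, the testis form of an alpha subunit, listed at 0 in all 4 libraries, and Psmb11, the catalytic subunit of cortical thymic epithelium, listed at 0.0185 TPM in low density library 1 and at 0 in the other 3.

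The proteasome is the protease that degrades proteins marked with ubiquitin. Its core particle is a barrel of stacked rings, in which alpha subunits form the outer gates and beta subunits form the inner chamber that holds the protease sites. A regulatory particle caps the barrel: its base holds a ring of ATPases that unfold substrates, and its lid removes ubiquitin chains. Other caps, the PA28 and PA200 activators, open the gate without ATP. Lymphoid cells also make an immunoproteasome, in which other catalytic subunits cut peptides for display on MHC class I.

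Values for the whole table bear on all that follows. Of 10936 rows tested by limma on log2(TPM + 1), 731 (6.68%) were called at a Benjamini-Hochberg adjusted p under 0.05, 500 of them higher and 231 lower at high density (160 and 154 with libraries centred on their medians, 216 and 144 after quantile normalisation). The log2 fold change (high against low density) had a median of 0.12 over all rows, which forms the reference for the changes below. Leaving out high density library 1 moved this median to 0.26, and leaving out high density library 2 moved it to −0.025. The 6 T cell line markers summed to between 4280 and 5063 TPM in the 4 libraries, though Rag1 fell, from 609 and 480 to 185 and 182 TPM (limma adjusted p = 0.00283), and Ptprc was higher without overlap (ratio of means 1.56, limma adjusted p = 0.112). B cell, erythroid and epithelial markers summed to 1.30 TPM at most in any list. Fibroblast markers, led by Col1a1, summed to 46.7 TPM in low density library 1 and to 0.54 TPM at most in the other 3. Myeloid markers were at 6.62 to 16.1 TPM, nearly all of it Itgam, an integrin chain, while Lyz2 and Cd14 were listed at 0. The part of these in the results was not tested.

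RNA of most proteasome subunits had lower values at high density, with a median ratio of mean TPM, high over low density, of 0.686 in the core particle and 0.758 in the regulatory particle. The difference between the particles was not tested. Of the 40 members tested, 36 had a log2 fold change below 0 and 31 were lower in both high density libraries than in either low density library. Over all rows tested, 40.3% had a log2 fold change below 0 and 20.0% were lower without overlap. The median log2 fold change of the members was −0.43. A single member passed the test, the lid gene Psmd7, and it fell, against 2.11% of all rows called lower and 4.57% called higher (limma, Benjamini-Hochberg). At an unadjusted p under 0.05, 17 members were lower and 0 higher, against 7.76% and 15.7% of all rows. The number called depended strongly on single libraries: it was 0 without low density library 1 or 2, 16 lower and 1 higher without high density library 1, and 15 lower when high density library 2 was left out. Leaving out a library leaves its group with a lone sample, assumed to vary like the pair of the other group, and calls over the whole table moved too. Without high density library 1, 7.88% of all rows were called lower and 26.3% higher, and when library 2 was left out 11.7% were called lower and 11.9% higher. Fewer cells with the RNA and less RNA per cell cannot be told apart in these bulk samples.

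**Figure D1:**
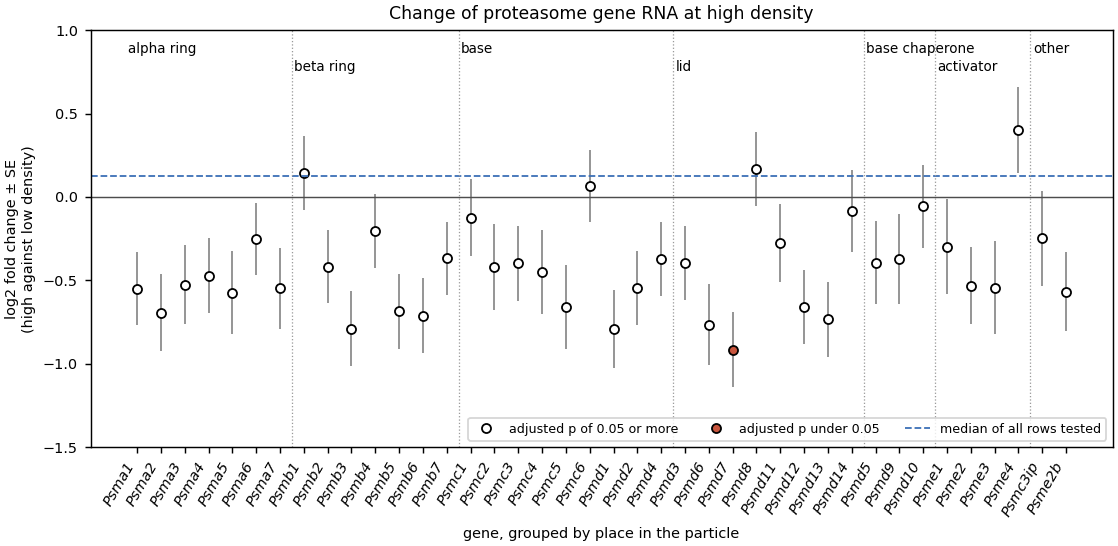
Log2 fold change of each tested member (high against low density, y axis, on the scale of log2(TPM + 1)) with bars of 1 SE from limma, n = 2 libraries per group, by place in the particle (x axis). The dashed line is the median of all rows tested, 0.12; 36 of 40 members lie below 0, and Psmd7 alone is filled as called.

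The alpha ring opens and closes the path into the barrel. All 7 tested alpha genes (8 members with Psma8) were lower without overlap, with log2 fold changes from −0.69 to −0.25 and a median of −0.55, and 0 were called (5 at an unadjusted p under 0.05). Psma2 was 510 and 613 TPM at low density and 383 and 312 TPM at high density. Its log2 fold change of −0.69 ± 0.23 (SE) was the lowest of the ring (limma adjusted p = 0.0963). Psma1 was 377 and 382 TPM at low density and 259 and 259 TPM at high density, so that the libraries of each group lay very close together.

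Psma6, the most abundant alpha gene at high density, had the log2 fold change nearest to 0 in the ring. It was 527 and 559 TPM at low density and 449 and 461 TPM at high density (log2 fold change −0.25 ± 0.22 SE). Psma3 was the least abundant subunit of the whole core particle, at 79.0 and 83.4 TPM against 55.3 and 56.8 TPM. The libraries of each group lay close together for both genes, and the groups did not overlap. Psma4 (ratio of mean TPM, high over low density, 0.722), Psma5 (0.678) and Psma7 (0.674) were of intermediate abundance, and the log2 fold change of Psma5 was −0.33 without high density library 2 (−0.57 with all libraries). That of Psma7 was −0.30 without low density library 2 (−0.55 with all libraries). The low density libraries of Psma7 differed from each other, at 360 and 508 TPM.

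The beta ring holds the cutting sites. Of its 7 tested genes (8 members with Psmb11), 6 were lower without overlap and 0 were called (3 at an unadjusted p under 0.05). The median log2 fold change was −0.42. The catalytic genes are Psmb5, which encodes the chymotrypsin-like site, Psmb6, the caspase-like site, and Psmb7, the trypsin-like site.

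Psmb5 was 216 and 238 TPM at low density and 137 and 144 TPM at high density (−0.69 ± 0.22 SE on the log2 scale, limma adjusted p = 0.0917). Psmb6 was 445 and 545 TPM at low density and 293 and 308 TPM at high density (−0.71 ± 0.23 SE, limma adjusted p = 0.0821). For both genes the high density libraries lay together, well under the low density libraries. Psmb7 was the most abundant catalytic gene, at 733 and 751 TPM at low density and 534 and 618 TPM at high density, with a log2 fold change of −0.37 ± 0.22 (SE), which was −0.55 after centring libraries on their medians and −0.19 after quantile normalisation.

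Among the beta genes without a protease site, Psmb3 was 474 and 531 TPM at low density and 314 and 267 TPM at high density. Its log2 fold change of −0.79 ± 0.22 (SE) was the lowest of the core particle and just missed the threshold (limma adjusted p = 0.0579). It passed with a filter of 5 TPM (limma adjusted p = 0.0415), with robust moderation (0.042) and with replicate number as a block (0.0491). It also passed without either high density library, where the spread comes from the low density pair alone and more rows are called throughout, the range over all alternatives being 0.00236 to 0.748. Psmb2 had a ratio of means of 0.748 and Psmb4 one of 0.868.

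Psmb1 was the only core gene with a log2 fold change above 0. It was 632 and 742 TPM at low density and 716 and 799 TPM at high density, so that the groups overlapped, and it was the most abundant core gene in both high density libraries. Its log2 fold change was 0.14 with a 95% interval of −0.35 to 0.63 (limma adjusted p = 0.744), and it was −0.044 with each library centred on its median and 0.35 after quantile normalisation.

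**Figure D2:**
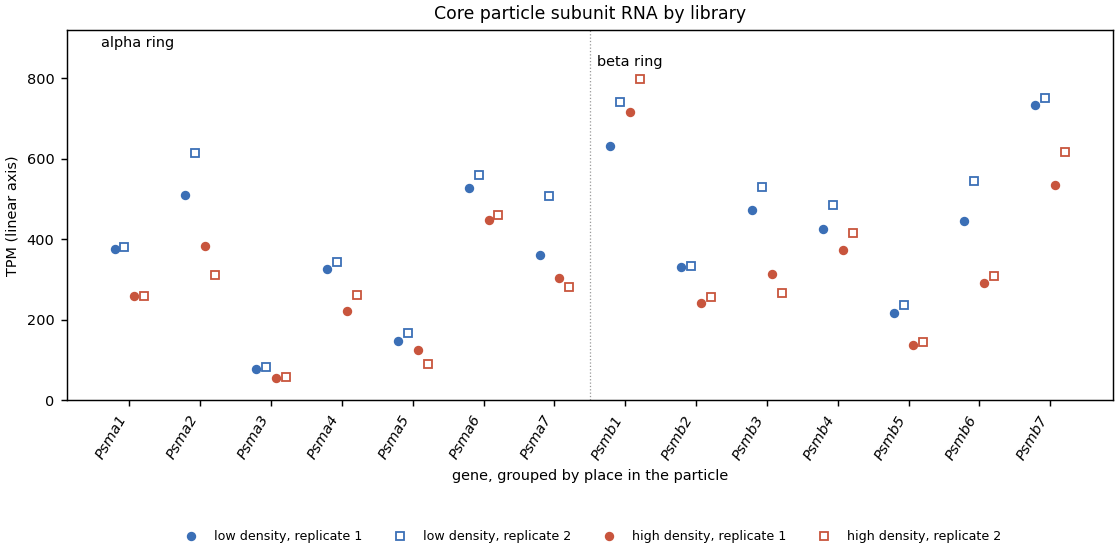
TPM of the 14 tested core particle genes (y axis, linear, from 0) in each of the 4 libraries; blue is low and red high density, filled circles are replicate 1 and open squares replicate 2. In 13 of 14 genes both red symbols lie under both blue ones, and Psmb1 is the exception.

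Promoters of the catalytic genes and of the member with the highest log2 fold change, Psme4, are shown to let the windows be read beside these values. Each holds the core of the element bound by NRF1 and NRF2 with small Maf proteins, which is known to drive proteasome genes. The sequences are RefSeq windows of 300 bases on build GRCm38.p6, from 250 bases before to 50 after the start, each read 5′ to 3′ on the strand of its gene. Capitals mark TGACNNNGC (that element), ACGTG (the core of the hypoxia response element) and CCGGAAG (an Ets site), searched on both strands together with CCAAT (the NF-Y box). None of the marked matches overlap in these windows, and CCAAT was not found in them. Psmb7 and Psmd7 were not in the table of promoters.
Psmb5, chr14:54617946-54618245, minus strand: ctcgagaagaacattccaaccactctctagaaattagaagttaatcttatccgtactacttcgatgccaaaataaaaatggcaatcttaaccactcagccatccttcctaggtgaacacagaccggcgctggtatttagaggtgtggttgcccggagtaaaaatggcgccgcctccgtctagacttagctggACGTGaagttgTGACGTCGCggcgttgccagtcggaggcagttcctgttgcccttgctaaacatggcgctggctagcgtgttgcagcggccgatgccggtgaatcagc
Psmb6, chr11:70525107-70525406, plus strand: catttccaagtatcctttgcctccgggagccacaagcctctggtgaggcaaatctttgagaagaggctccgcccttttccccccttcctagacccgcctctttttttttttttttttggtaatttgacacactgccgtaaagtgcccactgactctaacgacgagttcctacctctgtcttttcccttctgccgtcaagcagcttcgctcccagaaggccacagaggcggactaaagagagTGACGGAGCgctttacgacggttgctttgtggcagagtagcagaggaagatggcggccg
Psme4, chr11:30771525-30771824, plus strand: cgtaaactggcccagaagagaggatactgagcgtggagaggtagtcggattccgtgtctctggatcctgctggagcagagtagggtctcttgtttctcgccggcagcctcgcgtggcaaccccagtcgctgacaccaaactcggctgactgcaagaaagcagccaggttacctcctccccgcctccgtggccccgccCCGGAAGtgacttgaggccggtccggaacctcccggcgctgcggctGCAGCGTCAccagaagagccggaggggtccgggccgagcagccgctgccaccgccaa

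Of the 40 tested members, 34 matched a promoter, with 37 windows in all. TGACNNNGC was in 6 of the 37 (16.2%), against 14.4% of the windows of all tested rows. Its 6 genes were Psmb5, Psmb6, Psmc6, Psmd12, Psmd9 and Psme4, with a median log2 fold change of −0.52, beside −0.50 for the matched members without it. The genes holding it thus included both lower values (Psmb6) and the highest (Psme4). CCAAT was in 35.1% of member windows and 38.4% of those of all tested rows, and ACGTG in 18.9% and 25.9%. CCGGAAG was in 14 member windows of 13 genes, 37.8% against 19.7% for all tested rows and 8.86% of all 32851 windows. The 13 genes with CCGGAAG had a median log2 fold change of −0.37 and the other matched members one of −0.53. A match is a run of letters and not a measured site.

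The base of the regulatory particle was lower as well, with 7 of 9 genes lower without overlap and 0 called (3 at an unadjusted p under 0.05). The median log2 fold change was −0.42, and −0.25 without high density library 1. The median of all rows moved as well, from 0.12 to 0.26. Its ATPases, Psmc1 to Psmc6, form the unfolding ring, and several of them differed between the high density libraries. Psmc5 was 327 and 327 TPM at low density, and 168 and 253 TPM at high density (log2 fold change −0.66 ± 0.25 SE, limma adjusted p = 0.139). Psmc4 was 348 and 333 TPM at low density and 201 and 308 TPM at high density. In both genes high density library 1 was the lowest of the 4 by a wide margin. Without it the log2 fold change was −0.37 for Psmc5 and −0.14 for Psmc4, beside 0.26 for the median of all rows. Without high density library 2 it was −0.96 and −0.76, beside −0.025 for all rows.

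Psmc2 and Psmc3 had the same ratio of means, 0.762. Leaving out high density library 1 gave log2 fold changes of −0.12 for Psmc2 and −0.25 for Psmc3, from −0.42 and −0.40 with all libraries. That step also raised the median of all rows, from 0.12 to 0.26. Psmc1 overlapped between the groups, with 357 and 384 TPM against 301 and 384 TPM, and its log2 fold change was −0.12, turning to 0.052 without high density library 1 and to 0.014 after quantile normalisation. Among regulatory particle members, which do not include the subunit Sem1, Psmc6 was the most abundant in every library. It was 450 and 467 TPM at low density and 471 and 490 TPM at high density. Both its high density libraries were thus above the low density ones, by little: the log2 fold change was 0.067 with a 95% interval of −0.41 to 0.54, and it was −0.12 after centring libraries on their medians and 0.21 after quantile normalisation.

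The other base genes encode scaffolds and receptors for ubiquitin. Psmd1, a large scaffold, was 141 and 137 TPM at low density and 73.5 and 87.1 TPM at high density, or −0.79 ± 0.24 (SE) on the log2 scale (limma adjusted p = 0.0669). It was the lowest of the base and passed with libraries centred on their medians (limma adjusted p = 0.0479) and after quantile normalisation (0.0497). It also passed in the fits with a lone high density library, the range over all alternatives being 0.00618 to 0.709. Psmd2, the other scaffold, was 372 and 338 TPM against 259 and 228 TPM (−0.55 ± 0.22 SE), and Psmd4, a ubiquitin receptor, had a ratio of means of 0.772.

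In the lid, Psmd7 fell and the other 7 genes did not pass the test. Psmd7 is the partner of the lid's deubiquitinase. It was 294 and 308 TPM at low density and 152 and 166 TPM at high density, which is a ratio of means of 0.529 and −0.92 ± 0.22 (SE) on the log2 scale, with a limma adjusted p of 0.0324. The 2 groups stood far apart relative to the gap within each. It no longer passed when low density library 1 (limma adjusted p = 0.342) or 2 (0.548) was left out, without the variance trend (0.0784), after quantile normalisation (0.0507) and with no filter (0.212), while its log2 fold change stayed between −1.10 and −0.85 under all 13 alternatives.

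Psmd14, the deubiquitinase itself and the partner of Psmd7 in the particle, was 265 and 299 TPM at low density and 222 and 320 TPM at high density. Its groups overlapped, since high density library 2 was the highest of the 4 and high density library 1 the lowest. The log2 fold change was −0.083 with a 95% interval of −0.62 to 0.46. It was 0.18 without high density library 1, where the median of all rows was 0.26. Whether it differs from that of Psmd7 was not tested.

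Other lid genes are structural. Psmd6 was 329 and 349 TPM at low density and 166 and 239 TPM at high density (log2 fold change −0.76 ± 0.25 SE, limma adjusted p = 0.0857, and −0.50 without high density library 1). Psmd12 was 248 and 252 TPM against 158 and 159 TPM (−0.66 ± 0.22 SE, limma adjusted p = 0.0999), and Psmd13 was 200 and 198 TPM against 123 and 116 TPM (−0.73 ± 0.23 SE, limma adjusted p = 0.0742). In these 3 genes both high density libraries were clearly below both low density libraries. Psmd3 had a ratio of means of 0.758 and Psmd11 one of 0.824, and Psmd11 was the least abundant lid gene.

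Psmd8 was the only lid gene with a log2 fold change above 0, with 296 and 299 TPM at low density and 354 and 315 TPM at high density. The groups did not overlap, but the log2 fold change of 0.17 had a 95% interval of −0.32 to 0.65 (limma adjusted p = 0.694), and it was −0.019 with each library centred on its median and 0.28 after quantile normalisation. Over the regulatory particle, 13 of 17 genes were lower and 2 higher without overlap, where 34.7% of all rows were higher without overlap.

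**Figure D3:**
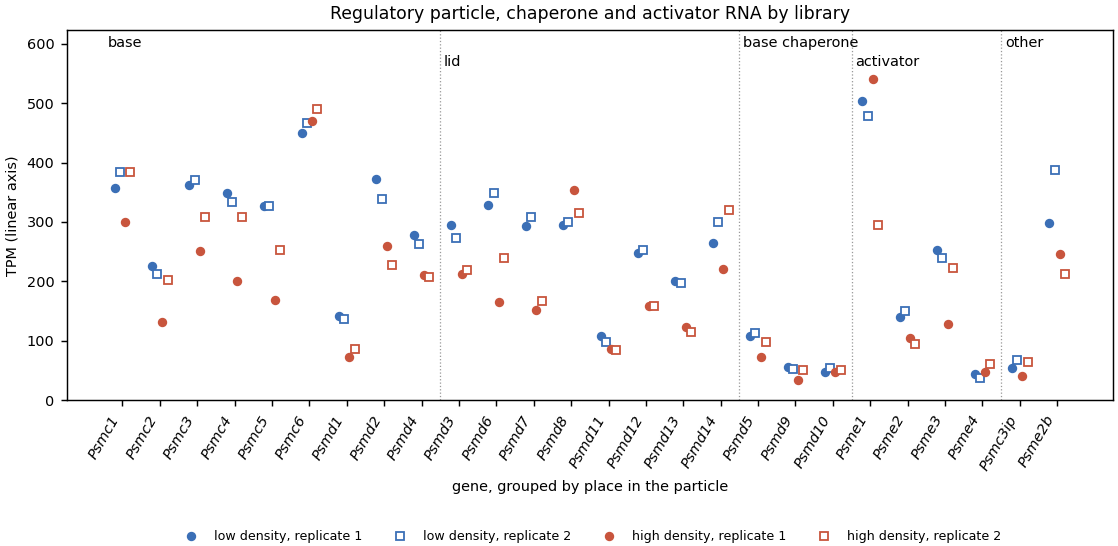
TPM of the 26 tested members outside the core particle (y axis, linear, from 0) in each library; blue is low and red high density, filled circles are replicate 1 and open squares replicate 2. Psmd7, Psmd12 and Psmd13 show both red symbols well under both blue ones, while Psmc6 and Psmd8 show them above, and Psme1 has the widest gap between its red symbols.

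Summed over each particle, core RNA was 5585 and 6285 TPM in the low density libraries and 4405 and 4531 TPM in the high density libraries. RNA of the regulatory particle members was 4898 and 4910 TPM at low density and 3540 and 4084 TPM at high density. These members leave out the subunits Sem1 and Adrm1. The ratio of mean sums, high over low density, was 0.753 for the core and 0.777 for the regulatory particle. Both sums were lower in each high density library than in either low density library. Regulatory over core RNA was 0.877 and 0.781 at low density, beside 0.804 and 0.901 at high density, so this balance overlapped between the groups. Alpha over beta RNA was 0.715 and 0.733 at low density and 0.688 and 0.613 at high density. An exact permutation test of 2 libraries against 2 cannot go below p = 0.333, so none is given for these sums.

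Levels of the member subunits were less even at high density, although each particle holds its subunits in fixed numbers. Spread among other genes of like level was not measured, so a change particular to the proteasome is not shown. The coefficient of variation of TPM over the 14 core genes was 44.7% and 44.7% in the low density libraries and 54.9% and 61.6% in the high density libraries. Over the 17 regulatory particle members it was 29.8% and 31.7% at low density, beside 47.8% and 44.5% at high density. The naming rule leaves out 2 subunits of that particle. Sem1 was 563 and 757 TPM at low density and 555 and 462 TPM at high density, and Adrm1 was 93.9 and 101 TPM against 54.5 and 68.8 TPM. The spread with them was not computed and could differ less between densities. The highest gene of the core exceeded the lowest by 9.27 and 9.01 times at low density and by 12.9 and 14.1 times at high density. The lowest was Psma3 in every library. The genes with log2 fold changes above 0, Psmb1, Psmc6 and Psmd8, were among the abundant ones of their particles at high density. Across genes, which are not independent replicates, log2 levels of the core had r = 0.989 for the low density pair, 0.980 for the high density pair and 0.947 to 0.973 across densities. For the regulatory particle these were 0.989, 0.917 and 0.848 to 0.904.

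**Figure D4:**
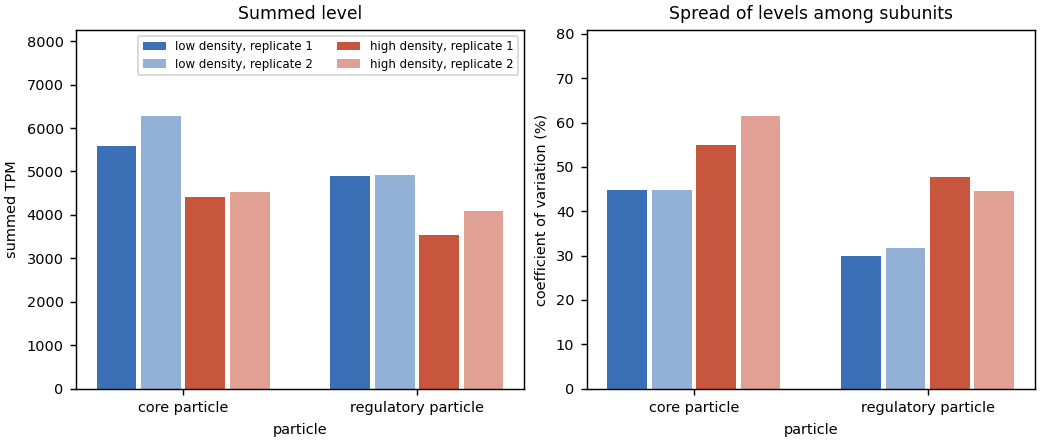
Left, summed TPM of the tested core (14 genes) and regulatory particle genes (17 genes) in each library; right, the coefficient of variation of TPM over the same genes in percent. Bars are single libraries, dark for replicate 1 and light for replicate 2. At high density (red) the sums are lower and the variation is higher than at low density (blue) in both particles. Sem1 and Adrm1 are not counted.

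Chaperones that assemble the base are not part of the finished particle. Psmd9 and Psmd10 were below every tested core and regulatory member in each library. Psmd5, at 108 and 113 TPM at low density and 72.1 and 97.4 TPM at high density, was above Psma3 in each. Psmd5 had a ratio of means of 0.767, Psmd9 one of 0.782 and Psmd10, which encodes gankyrin, one of 0.960. None was called (limma adjusted p = 0.37, 0.441 and 0.918, and 0 at an unadjusted p under 0.05). Psmd9 was 55.7 and 53.4 TPM at low density and 34.5 and 50.8 TPM at high density, and the groups of Psmd10 overlapped. Without high density library 1 the log2 fold changes of Psmd5 and Psmd9 were −0.18 and −0.10, beside a median of all rows of 0.26. With that library as the lone high density one they were −0.61 and −0.65, beside −0.025 for all rows.

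The activators had mixed values, and 0 of 4 were called (1 lower at an unadjusted p under 0.05). Psme1 and Psme2 encode the subunits of the PA28 cap that interferon-γ induces, and Psme3 encodes the nuclear form of PA28. Psme1 was 503 and 478 TPM at low density and 541 and 294 TPM at high density, the widest disagreement between replicates among the members. Its log2 fold change was −0.30 ± 0.28 (SE), 0.14 when high density library 2 was left out, and −0.73 when library 1 was (limma adjusted p = 0.568 with all libraries, 0.618 and 0.00787). Psme2 was 139 and 150 TPM at low density and 105 and 94.9 TPM at high density, with no overlap (−0.53 ± 0.23 SE, limma adjusted p = 0.189).

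Psme3 was 253 and 239 TPM at low density and 128 and 222 TPM at high density, again with high density library 1 far below the other 3. Its log2 fold change of −0.54 became −0.15 without that library and −0.94 when high density library 2 was left out. In these fits the median of all rows was 0.26 and −0.025. Psme4, which encodes PA200, had the highest log2 fold change of all members, 0.40 ± 0.26 (SE, limma adjusted p = 0.383). It was 43.8 and 37.9 TPM at low density and 48.0 and 61.1 TPM at high density, without overlap. It was called higher without high density library 1 (limma adjusted p = 0.0428, range over all alternatives 0.0428 to 1), where 26.3% of all rows were called higher, and its log2 fold change was 0.22 after centring libraries on their medians and 0.23 when high density library 2 was left out. The remaining rows were Psme2b, a second gene for the PA28 beta subunit, and Psmc3ip, a meiotic recombination factor named for binding Psmc3 and no proteasome subunit. Psme2b was 298 and 387 TPM against 247 and 212 TPM (ratio of means 0.670). Psme2 and Psme2b are near-identical copies, so how reads were split between them is uncertain. Psmc3ip was 53.7 and 68.1 TPM against 40.5 and 63.7 TPM, with overlap.

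The products of the immunoproteasome genes can replace the catalytic subunits in lymphoid cells. Psmb8 takes the place of Psmb5 and had 2.43 and 2.15 times its TPM at low density, and 3.43 and 2.27 times at high density. Psmb9 had 0.234 and 0.200 times the TPM of Psmb6 at low density, against 0.346 and 0.285 times at high density, and Psmb10 had 0.0579 to 0.122 times that of Psmb7. Psmb8 was 525 and 512 TPM against 471 and 327 TPM (log2 fold change −0.40 ± 0.24 SE, limma adjusted p = 0.348), with no overlap.

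Other genes of the pathway were called in 0 of 40 tested cases, against 6.68% of all rows. At an unadjusted limma p under 0.05, 4 were lower and 3 higher, against 7.76% and 15.7% of all rows. The median log2 fold change of these 40 genes was −0.19. Those that build the core, Psmg1 to Psmg4 and Pomp, had a median of −0.30. Pomp, the maturation factor of the core, was lowest, at 414 and 443 TPM against 294 and 267 TPM (log2 fold change −0.61 ± 0.22 SE, limma adjusted p = 0.121). In the list of further subunits and regulators (9 tested, median −0.29), the ubiquitin receptor Adrm1 was 93.9 and 101 TPM against 54.5 and 68.8 TPM (limma adjusted p = 0.131). Akirin2, whose human counterpart brings proteasomes into the nucleus, was higher without overlap, at 78.6 and 66.5 TPM against 125 and 134 TPM (0.83 ± 0.24 SE, limma adjusted p = 0.058). Over all rows tested, 34.7% were higher without overlap.

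The NRF1 list (7 tested) had a median of 0.086. Nfe2l1, which encodes NRF1, the factor that raises proteasome genes when proteasomes are short, was 57.7 and 39.0 TPM at low density and 74.4 and 84.9 TPM at high density (log2 fold change 0.73 ± 0.27 SE, limma adjusted p = 0.126). Its values were higher without overlap, as were those of 34.7% of all rows tested. In the whole list 3 genes were higher and 1 was lower without overlap. A link between Nfe2l1 and the subunit levels was not tested. Among ubiquitin and E1 genes (6 tested, median 0.049), Ubb, a polyubiquitin gene, was 298 and 308 TPM against 390 and 379 TPM (limma adjusted p = 0.372), and Rps27a, which fuses ubiquitin to a ribosomal protein, was 44.8 and 58.3 TPM against 27.5 and 26.2 TPM (limma adjusted p = 0.0629). Ubiquitin genes have many near-identical copies, so these levels are uncertain. The E1 gene Uba1 was 255 and 198 TPM against 195 and 146 TPM, lower without overlap (limma adjusted p = 0.353). Of shuttles and the VCP unfoldase (10 tested, median −0.00066), Vcp was 216 and 183 TPM against 129 and 125 TPM (limma adjusted p = 0.118), and Faf1, a cofactor of VCP, was 66.6 and 54.9 TPM against 88.1 and 131 TPM (limma adjusted p = 0.0908).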

How the data were processed

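RNA from 4 libraries of BEKO cells was compared between densities. The authors deposited 1 table of TPM, 1 column per library, each summing to 1000000 over 25630 rows. The submitters' processing notes name the build mm9 and DESeq2 1.2.10 with no role, and for the aligner, counter, annotation and lengths the sources used here give nothing. TPM keeps no depth, so depth is unknown and no counting interval is given. TPM is relative: a rise of abundant RNAs lowers the rest.

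High against low density was tested with limma 3.58.1 in R 4.3.3 on log2(TPM + 1) over the 10936 rows averaging 1 TPM or more (group term, variance trend, two-sided, Benjamini-Hochberg over all rows tested), and fold changes on that scale understate those of low genes. The fit has 2 residual degrees of freedom and gained 9.53 by moderation. It was tested on simulated data. Intervals are 95% intervals from that fit. Values are per library in the order of replicates 1 and 2, and n = 2 libraries per group.

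Members, lists and promoter motifs were chosen with earlier results of these data known. Every member is named, and of other lists up to 4 genes of smallest p. The immunoproteasome list was described by its ratios as well. Proteins were not compared here. Processed pseudogenes of subunits can share their reads, and how such reads were counted is not given.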

Additional observations from a re-analysis of the deposited data

How the results depend on the processing

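Of 520 refits of single members, 468 kept their direction and their side of the threshold, 35 gained a call and 5, all of Psmd7, lost it. In the other 12 the sign turned, in members whose log2 fold change with all libraries lay between −0.30 and 0.17: with libraries centred on their medians for Psmb1 (−0.044), Psmc6 (−0.12) and Psmd8 (−0.019), after quantile normalisation for Psmc1 (0.014) and Psmd14 (0.0094), without high density library 1 for Psmc1 (0.052), Psmc3ip (0.075), Psmd10 (0.0014) and Psmd14 (0.18), without low density library 2 for Psmd10 (0.032) and Psmd14 (0.0038), and without high density library 2 for Psme1 (0.14). With 1 library left out, log2 fold changes ranged from −0.30 to 0.052 for Psmc1, −0.57 to 0.075 for Psmc3ip, −0.14 to 0.032 for Psmd10, −0.35 to 0.18 for Psmd14 and −0.73 to 0.14 for Psme1. Without any filter limma called 0 rows higher and 0 lower (2565 at an unadjusted p under 0.05), and 0 members. Rows called higher, 500, became 160 with centring and 216 after quantile normalisation, and ranged from 99 to 2873 with 1 library left out. Rows called lower, 231, became 144 after quantile normalisation and 144 without the trend, and ranged from 69 to 1271. Members called lower, 1, became 2 with a filter of 5 TPM, with centring, with robust moderation and with the replicate block, 0 without the trend, and 0 to 16 with 1 library left out, and members called higher were 0 to 1. Other pathway genes called were 1 higher and 1 lower with a filter of 5 TPM and 1 higher with robust moderation, and with 1 library left out 0 to 6 higher and 0 to 6 lower. The core median was −0.72 and the regulatory median −0.61 with centring, where the median of all rows was −0.063. With 1 library left out the regulatory median was −0.54 to −0.37. The lower end was without high density library 2 (all rows −0.025) and the upper end without high density library 1 (all rows 0.26).

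The labels give same-numbered libraries nothing in common beyond the number. Their deviations from the group means correlated at r = 0.042 over 10936 rows. With 2 pairs this cannot show whether the libraries were paired. The replicate block gave 2 members lower, Psmb3 and Psmd7, with 937 rows called against 731 without the block. With 2 libraries per group and unknown depth, small changes of single subunits were not separable from the spread.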
